A study of Gossypium hirsutum with 2 samples.

Results

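The promoters described here belong to genes for membrane transporters and channels of upland cotton (Gossypium hirsutum) that were enriched with the protein GhD53 in vitro. GhD53 belongs to the D53 family, the repressors that hold strigolactone responses down until the hormone triggers their breakdown. In the assay, DNA affinity purification sequencing, a protein with an affinity tag is produced in vitro and given bare genomic DNA, and the DNA it retains is sequenced. The IP fraction (the DNA held with GhD53) was compared with the input fraction (the library labelled as input DNA), both from cotton fiber, with 1 library each and no further treatment, age or genotype in the labels. Without replicates, and without a purification that lacked the protein, no difference below has a replicate check. Retention by GhD53 and by the purification itself cannot be told apart.

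The members were chosen by words in the best protein hit that the authors gave for each gene with a promoter peak. The words were transporter, channel, antiporter, exchanger, aquaporin, carrier, permease and transporting ATPase. Descriptions with kinase, receptor, chloroplast, mitochondri or acyl carrier were left out, as were genes in a transcription factor family. The rule found 37 genes with 38 peaks, out of 2111 genes with 2183 peaks in the longer of the 2 deposited peak lists. Of the 37 genes, 35 were described as transporters, pumps or channels. GH_D03G1950 is a secretory carrier-associated membrane protein 4, a protein of vesicle traffic. GH_D05G3235 is a 3-oxoacyl-[acyl-carrier-protein] reductase of fatty acid synthesis. Both were taken for the word carrier and are kept in every count unless stated.

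Transport proteins decide which ions, sugars and other solutes cross the plasma membrane and the vacuolar membrane (tonoplast). Channels let solutes run down their gradient, carriers couple one solute to another or to protons, and pumps spend ATP. A cotton fiber is a single seed hair cell that lengthens under turgor. That turgor rests on the uptake of potassium, sugars and organic acids into a large vacuole, with water following through aquaporins. D53 proteins are known mainly as partners of corepressors and transcription factors at promoters.

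Almost all transporter peaks were low. Pileup, the height of the stacked fragments at a peak's summit in the IP library, is read here as fragments because its values are whole numbers; whether it was scaled is not stated. It was 4 at 8 peaks, 5 at 16 and 6 at 11, with 1 peak each at 7, 8 and 13. At 4, 5 and 6 stood 21.1%, 42.1% and 28.9% of the transporter peaks, against 19.7%, 34.9% and 20.2% of the other peaks. Higher pileups were the more frequent among the others: 8.76% at 7 and 4.43% at 8, against 2.63% each. From 9 to 20 the shares were 2.63% and 6.57%. Each of these shares of the others lies inside the members' Wilson 95% interval, but the pileups were not pooled for a comparison. The median pileup was 5 among the 38 transporter peaks and 5 among the other 2145 peaks of the list. The median fold over background, the authors' value like every fold and q-value here, was 3.73 in both (interval of the members' median from order statistics, 3.73 to 4.28). The background under a peak was recovered from its pileup and fold, and its lowest value in the list was 0.608 fragments. It lay under 36 of the 38 transporter peaks (94.7%) and under 84.4% of the others. On this background a given pileup always has the same fold, so peaks of equal pileup cannot be ordered. Pileups of 4, 5 and 6 correspond to 3.11-fold, 3.73-fold and 4.35-fold.

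**Figure D1:**
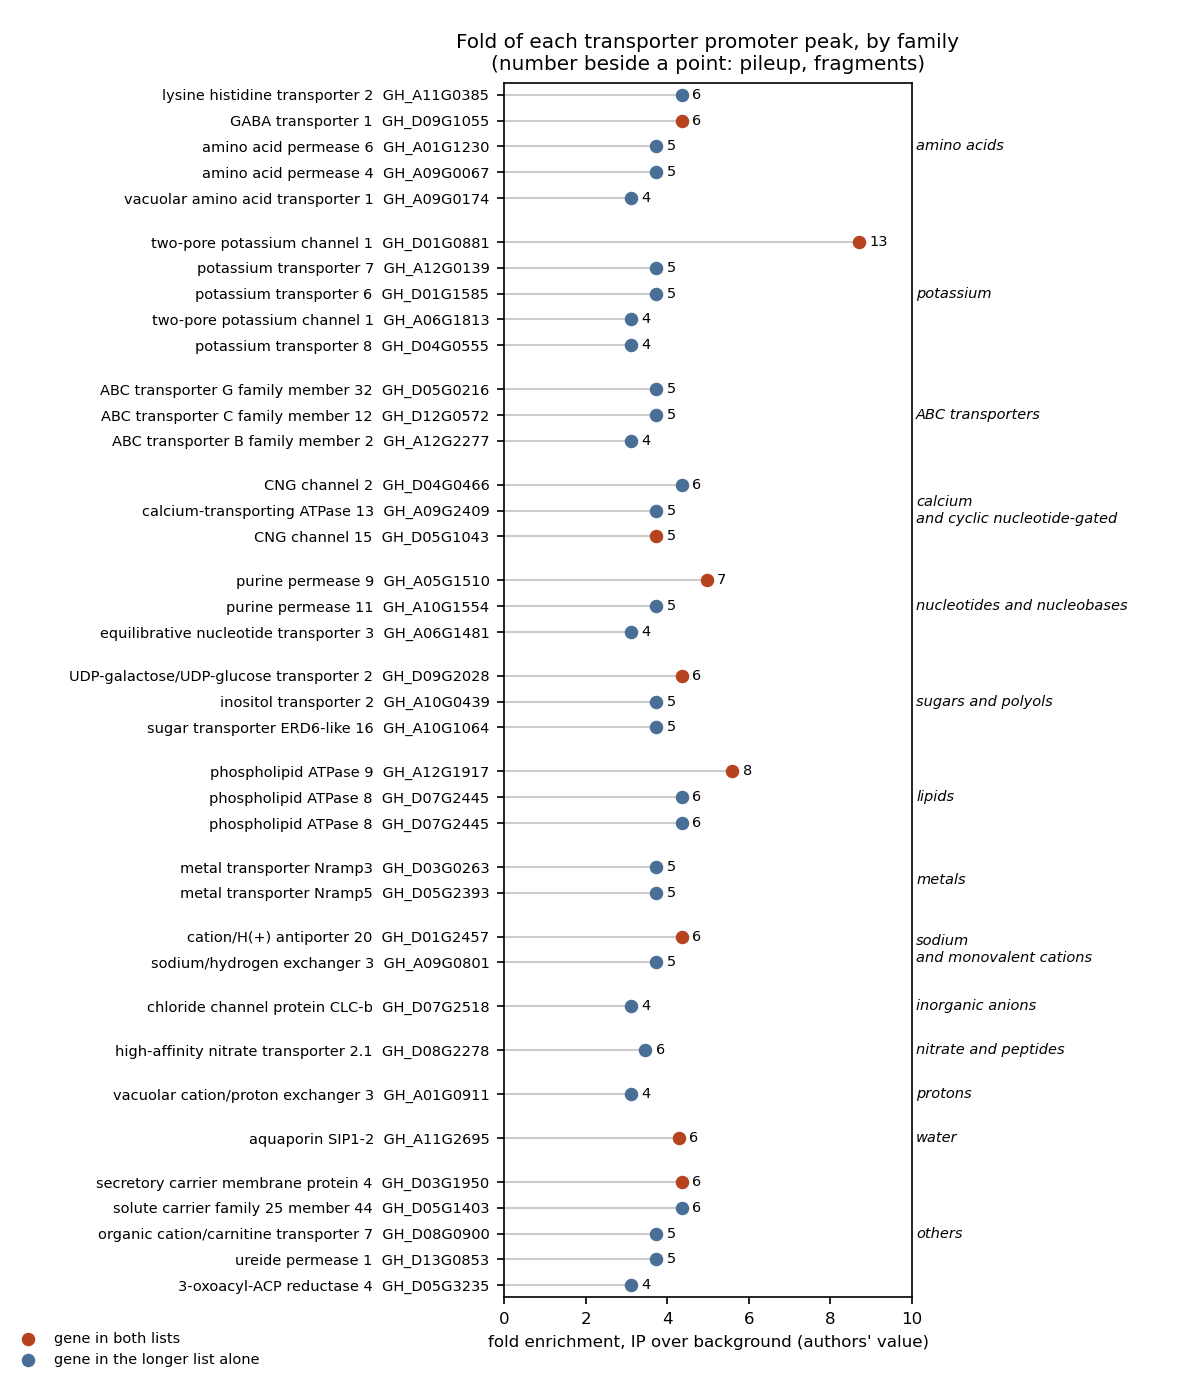
Fold enrichment of IP over background (x axis, linear) for each of the 38 transporter promoter peaks, grouped by substrate family, with the pileup in fragments beside each point. Orange points are genes in both lists and blue points genes in the longer list alone; the potassium channel gene GH_D01G0881 stands at 8.71-fold and all other peaks lie between 3.11-fold and 5.60-fold.

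The strongest member was GH_D01G0881, a two-pore potassium channel 1-like gene. In Arabidopsis, channels of this type sit in the tonoplast and release potassium from the vacuole. Its peak lay on chromosome D01 (11407420 to 11407688, coordinates as the files give them, genome build not given in the sources used here). It had a pileup of 13, 8.71-fold and a −log10 q of 10.1, and was centred 1978 bp upstream of the start site. In the whole list 32 peaks had a higher fold. A second gene of the same description, GH_A06G1813 on chromosome A06, had the lowest pileup in the list, 4, with 3.11-fold and a −log10 q of 0.917, at 1723 bp upstream. The chromosome numbers differ, so these are not an A and D copy at matching positions. If a pileup is taken as a plain count of fragments, the exact Poisson 95% intervals of 13 and 4 are 6.92 to 22.2 and 1.09 to 10.2. These intervals overlap and cover counting error only. The other potassium genes were 3 carriers of the HAK/KUP type, which take potassium into the cell or move it out of the vacuole. The potassium transporter 7-like GH_A12G0139 and the potassium transporter 6-like GH_D01G1585 had a pileup of 5. The potassium transporter 8-like GH_D04G0555 had a pileup of 4. Of these 5 potassium genes 1 was in both lists, GH_D01G0881.

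The next highest single fold was in the lipid family. It held both phospholipid-transporting ATPases, flippases that move phospholipids from one face of a membrane to the other. GH_A12G1917 (phospholipid-transporting ATPase 9) had a pileup of 8, 5.60-fold and a −log10 q of 4.17 on chromosome A12 (95633199 to 95633382). This peak lay 442 bp upstream, the third nearest to a start site among the members. GH_D07G2445 (phospholipid-transporting ATPase 8) was the only member with 2 peaks; in the whole list 63 genes had 2 or more. Its peaks were centred 1000 and 1442 bp upstream on chromosome D07 (56760589 to 56760727 and 56761019 to 56761180), with 291 bp between them and 534 bp between their summits. Each had a pileup of 6 and 4.35-fold. All 3 lipid peaks, 2 of them at GH_D07G2445, therefore had a fold of 4.35 or more, above the median of the list. The upper quartile of fold over the whole list was also 4.35, so such folds were common. The family was too small to rank against others.

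Amino acid carriers matched potassium in number, with 5 genes. These proteins mostly draw amino acids into cells together with protons. The lysine histidine transporter 2-like GH_A11G0385 and the GABA transporter 1-like GH_D09G1055 had a pileup of 6 and 4.35-fold. The amino acid permeases GH_A01G1230 (6-like) and GH_A09G0067 (4-like) had 5 and 3.73-fold. The vacuolar amino acid transporter 1-like GH_A09G0174 had 4 and 3.11-fold. Only GH_D09G1055 of these was also in the shorter list.

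Among carriers of nucleobases and nucleosides, GH_A05G1510 (purine permease 9) had the third highest fold of all members, 4.98, with a pileup of 7 at 1849 bp upstream. Purine permeases carry adenine and related bases, and some of them carry cytokinins. GH_A10G1554 (purine permease 11) had 3.73-fold and the peak nearest to a start site, 345 bp upstream. The equilibrative nucleotide transporter 3-like GH_A06G1481 had 3.11-fold. All 3 lay on A chromosomes. The ureide permease 1-like GH_D13G0853, of a family that moves allantoin and uracil, had 3.73-fold at 416 bp upstream.

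The sugar family held 3 genes. GH_D09G2028, a UDP-galactose/UDP-glucose transporter 2-like gene whose kind supplies sugar donors to the endoplasmic reticulum or Golgi, had 4.35-fold. The inositol transporter 2 gene GH_A10G0439 and the ERD6-like 16 sugar transporter gene GH_A10G1064 had 3.73-fold. No sucrose transporter and no SWEET gene was among the members. Names with transport protein in place of transporter hold no word of the rule, such as the sugar transport protein 8-like GH_D05G0900, and are not covered. The 3 ABC transporters, ATP-driven pumps of varied substrates, were in the longer list alone. GH_D05G0216 (G family member 32-like, the type that exports cutin precursors in Arabidopsis) and GH_D12G0572 (C family member 12-like) had 3.73-fold. GH_A12G2277 (B family member 2-like) had 3.11-fold.

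Calcium and other cation genes followed at similar levels. GH_D04G0466, a cyclic nucleotide-gated ion channel 2-like gene, had 4.35-fold at 2022 bp upstream, the one member peak centred beyond 2000 bp. GH_D05G1043 (cyclic nucleotide-gated ion channel 15) and GH_A09G2409, a calcium-transporting ATPase 13 that would pump calcium out of the cell, had 3.73-fold. Channels of the cyclic nucleotide-gated family let calcium into plant cells. The cation/H(+) antiporter 20-like GH_D01G2457, related to an Arabidopsis protein of guard cell osmoregulation, had 4.35-fold. The sodium/hydrogen exchanger 3-like GH_A09G0801 had 3.73-fold, and the vacuolar cation/proton exchanger 3-like GH_A01G0911, of the type that loads calcium into the vacuole, had 3.11-fold. The metal transporters GH_D03G0263 (Nramp3-like) and GH_D05G2393 (Nramp5-like), from a family that moves iron and manganese, both had 3.73-fold. Their peaks lay 645 and 1956 bp upstream.

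Anion and water genes were few among the members, which depends in part on the words of the rule. Genes named NRT1/ PTR FAMILY, which carry nitrate among other solutes, hold none of these words and are described below. The anion transporter 3 gene GH_D09G1743 was left out for the word chloroplast. The high-affinity nitrate transporter gene GH_D08G2278, of the main root uptake system for scarce nitrate, had a pileup of 6 but 3.47-fold, with a background of 1.02 fragments. The chloride channel CLC-b-like GH_D07G2518, of a family that exchanges nitrate or chloride for protons at the tonoplast, had 3.11-fold. One aquaporin was found, the SIP1-2-like GH_A11G2695, with a pileup of 6 on a background of 0.636 (4.28-fold). SIP aquaporins reside in the endoplasmic reticulum in Arabidopsis, unlike the plasma membrane and tonoplast types. Among the remaining genes, the solute carrier family 25 member 44-like GH_D05G1403 had 4.35-fold and the organic cation/carnitine transporter 7-like GH_D08G0900 had 3.73-fold. By the words of their descriptions, no member fell to the families for auxin or for drug extrusion. For drug extrusion the rule itself largely sets this absence. The protein DETOXIFICATION 29-like GH_D02G1745 and the pleiotropic drug resistance protein 3-like GH_D04G0899 have peaks in the list, but their names hold no word of the rule. ABC transporters were sorted into their own family first, so whether any of them carries auxin or drugs is not covered.

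The longer list also holds peaks that the shorter one does not, although both compare the same 2 libraries. Of the 37 member genes 9 were in both lists, a share of 24.3% (Wilson 95% interval 13.4 to 40.1, counting error only), against 34.3% over all genes of the list. That percentage lies inside the members' interval. At all 9 genes the shorter-list peak had the same summit, pileup and fold and lay inside the longer-list peak, so its presence adds no second measurement. The 9 were GH_D01G0881, GH_A12G1917, GH_A05G1510, GH_D01G2457, GH_D03G1950, GH_D09G1055, GH_D09G2028, GH_A11G2695 and GH_D05G1043. Each came from a different family, counting the vesicle protein with the mixed remainder. Without the 2 genes that are not transporters the share was 22.9% (8 of 35).

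The authors' q-value was at or below 0.05 for 30 of the 38 transporter peaks (78.9%, Wilson 63.7 to 88.9), against 79.0% of all peaks in the list. The 8 others were those of pileup 4, all with a −log10 q of 0.917. They were GH_A01G0911, GH_A06G1481, GH_A06G1813, GH_A09G0174, GH_A12G2277, GH_D04G0555, GH_D05G3235 and GH_D07G2518. It was at or below 1e-05 for 1 transporter peak (2.63%, Wilson 0.466 to 13.5), that of GH_D01G0881, against 10.4% of all peaks. A fold of 5 or more was found at 2 peaks (5.26%, Wilson 1.46 to 17.3), against 12.0%. Both background percentages are inside the members' intervals. Tall peaks were not seen. A pileup above 20 was found at 0 of 38 transporter peaks (Wilson 0 to 9.18) and at 116 of the other 2145 peaks (5.41%). An absence of such peaks was therefore not detectable as a difference with 38 peaks.

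**Figure D2:**
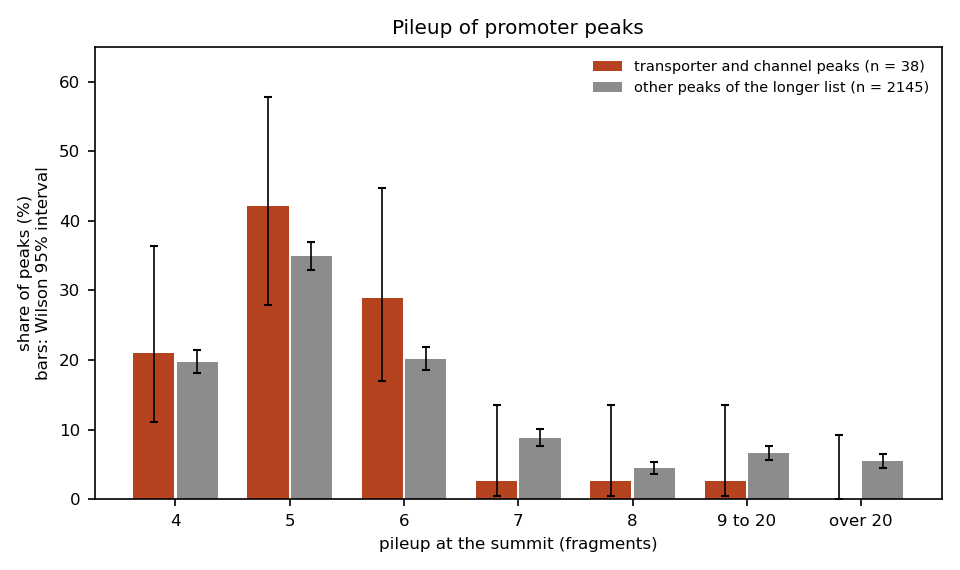
Share of peaks (y axis, percent) at each pileup (x axis, fragments) for the 38 transporter peaks (orange) and the other 2145 peaks of the longer list (grey), with Wilson 95% intervals. A pileup of 5 was the most frequent in both, and 0 transporter peaks had a pileup above 20.

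Within the promoters, the members' peaks lay mostly in the middle and far part of the upstream window, as did the other peaks of the list. All 38 were annotated to the promoter of their own gene, as were 2134 of all 2183 peaks in the list. Of the 37 centred within 2000 bp upstream, 14 lay in the nearer 1000 bp (37.8%, Wilson 24.1 to 53.9), against 39.2% of the other 2062 peaks. The median distance was 1286 bp (order-statistic interval 984 to 1404), against 1185.5 bp for the others. Only 3 members, GH_A10G1554, GH_D13G0853 and GH_A12G1917, had a peak within 500 bp (8.11%, Wilson 2.80 to 21.3), against 13.9% of the others. The nearest member peak was centred 345 bp and the nearest other peak 22 bp from the start site. At the far end GH_D01G0881 (1978 bp) and GH_D05G2393 (1956 bp) were the last within the window. The bin from over 1000 to 1500 bp held 14 members (37.8%), more than any other of the 4 bins, and 29.2% of the other peaks. In the farthest bin the order was reversed, with 24.3% of the members' peaks and 31.5% of the others. The intervals of every bin included the share of the other peaks.

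**Figure D3:**
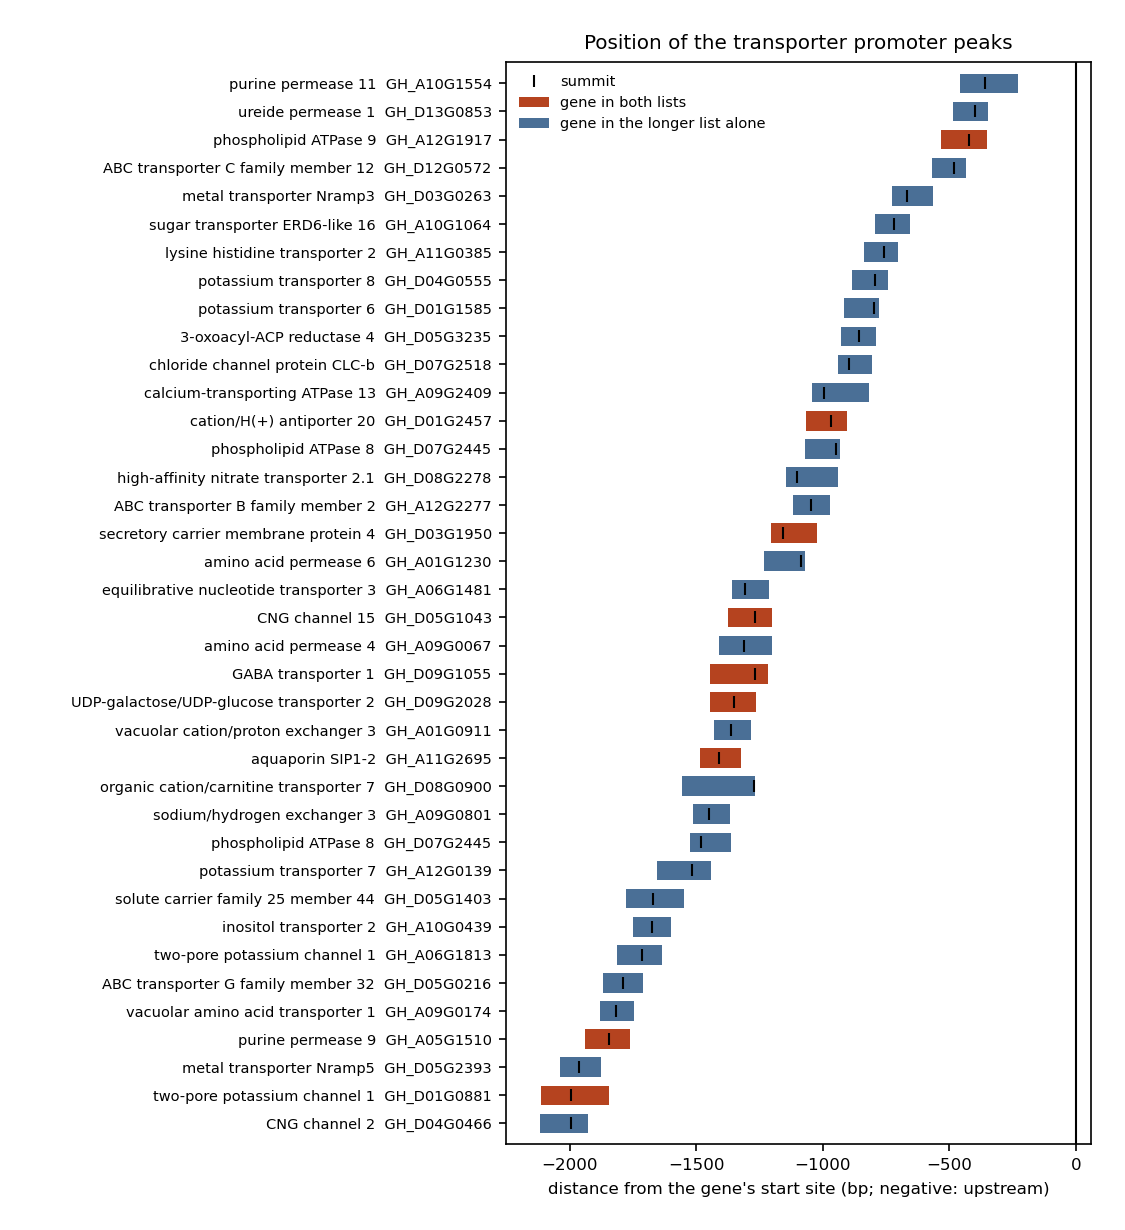
Position of each transporter promoter peak relative to its gene's start site (x axis, bp, negative upstream), ordered from nearest to farthest, with the summit as a tick. Orange bars are genes in both lists and blue bars genes in the longer list alone; the peaks run from GH_A10G1554 at 345 bp to GH_D04G0466 at 2022 bp.

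**Figure D4:**
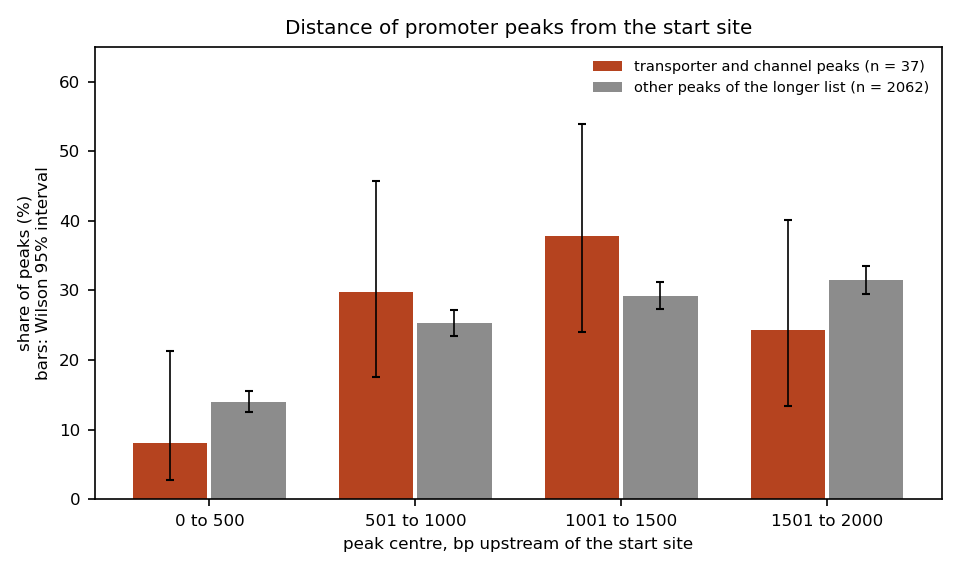
Share of peaks (y axis, percent) in 4 bins of distance upstream (x axis, bp) for the 37 transporter peaks (orange) and the 2062 other peaks (grey) centred within 2000 bp, with Wilson 95% intervals. The nearest bin held 8.11% of the transporter peaks and 13.9% of the others.

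The peaks were narrow, between 133 and 288 bp, with a median of 162.5 bp (147 to 182), against 174 bp for the other peaks of the list. Summits lay a median of 16.5 bp from the peak centre. The farthest off was that of GH_D08G0900, 140 bp from the centre, at the edge of the widest member peak. The 9 members in both lists had a median peak length of 182 bp and a median fold of 4.35, against 149 bp and 3.73 for the 29 peaks in the longer list alone. No shorter-list peak had a pileup below 5, so the 8 member peaks of pileup 4 (3.11-fold) could fall only among those 29. The difference in fold is therefore set in part by this cutoff and is no separate finding. At an equal pileup of 6 on the lowest background, the 4 peaks in both lists were 162 to 231 bp long and the 5 in the longer list alone 133 to 231 bp, so their lengths overlapped.

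The A and D subgenomes of cotton were both represented, with 17 member genes on A chromosomes and 20 on D (A share 45.9%, Wilson 31.0 to 61.6, against 49.7% of the other genes). Members were found on 16 of the 26 chromosomes. Chromosome D05 held the most, 5, and A09 held 4. Counts of all listed genes per chromosome are not given here, so no clustering can be read from these numbers. No member had a partner of the same description on the same-numbered chromosome of the other subgenome. The share of all genes in the list with such a partner is not given here, so this count cannot be set against the list. Copies whose best hits are worded differently would be missed. The one description that occurred at more than 1 member was the two-pore potassium channel described above.

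The authors' gene ontology terms, which like the names derive from sequence likeness, showed where the proteins are placed. Terms were given for 29 of the 37 members, against 915 of all 2111 genes. Of those 29, 24 had transporter activity, 18 the plasma membrane and 9 the vacuolar membrane. Over all 915 genes with terms, these were 59, 165 and 56. Because the members were chosen by transport words, their high shares of transport and membrane terms follow from that choice. The 9 genes with the vacuolar membrane term were both two-pore potassium channel genes, GH_A12G0139, GH_A09G0801, GH_A01G0911, GH_D03G0263, GH_D07G2518, GH_D08G2278 and GH_D12G0572. The terms overlap: both two-pore channel genes, GH_A12G0139, GH_A09G0801 and GH_D08G2278 had the plasma membrane term as well. The folds of the 9 spanned 3.11 to 8.71, the whole range of the members. Potassium ion transport was given to 7 of the 10 genes with that term in the list. They included the sodium/hydrogen exchanger GH_A09G0801 and the channel GH_D05G1043 beside the 5 potassium genes.

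Transport genes whose names the rule did not take had values of the same order. A further list of transport words matched 9 genes, with a median fold of 3.73. Of these, 4 were in both lists (44.4%, Wilson 18.9 to 73.3); the interval includes the 34.3% of all genes and overlaps that of the members. The NRT1/ PTR FAMILY, which carries nitrate, peptides and hormones, had 4 of these genes. GH_A05G2459 had 4.98-fold and GH_A09G0240 had the tallest pileup, 62, but on a raised background and hence at 3.17-fold. The pyrophosphate-energized vacuolar proton pump gene GH_D13G2294, whose kind powers uptake into the vacuole, had 4.35-fold and was in both lists. The V-type proton ATPase subunit gene GH_D03G0729 had 3.11-fold. Of 6 genes left out by the exclusion words, the mitochondrial pyruvate carrier 4-like GH_A10G0089 had the highest fold, 7.46 with a pileup of 11.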

How the data were processed

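DNA retained with GhD53 (IP) and input DNA from cotton fiber were sequenced, with 1 library each. The authors deposited 2 promoter peak lists of IP against input. Pileup (a signal in fragments), fold enrichment (a ratio), −log10 p and −log10 q of each peak are theirs, per the file headers. BWA, ChIPseeker and deepTools 2.5.4 are named in the submitters' processing notes; which tool found the peaks, on which build and above which threshold is not given in the sources used here. Library totals were not used, so depth is known only as pileup. The lowest −log10 q was 0.917 in the longer and 1.31 in the shorter list.

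Members were found by words in the deposited descriptions, with the longer list as the main one. Background was recovered as (pileup + 1) / fold − 1. Medians have order-statistic intervals and shares Wilson 95% intervals, both for counting error only. No test was run, since peaks are not replicates. Families were assigned by words, first match first; nucleotide in "cyclic nucleotide-gated" was not counted. Named genes were the 10 of highest fold (ties by pileup, then identifier), every member in both lists, the top 2 of each family, the 2 nearest and 2 farthest peaks within 2000 bp upstream, and any gene with 2 peaks. The other members are named to account for every one, a choice made after their values were seen, as are the examples outside the rule. Members and lists were chosen with earlier results of these data known. The steps were tested on simulated data. Python 3.11.15, pandas 2.3.3 and scipy 1.17.1 were used. Sequences were not used here.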

Additional observations from a re-analysis of the deposited data

How the results depend on the processing

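The 7 summary values were recomputed under 49 alternative settings in all, and 45 stayed within 1.5 times the reported count or inside the reported interval. The 4 that moved all came from using the shorter list, which starts at a higher significance. There the rule found 9 genes, the median fold was 4.35, 100% of peaks had a q-value of 0.05 or lower, and 22.2% of the 9 peaks were centred in the nearer 1000 bp. The shorter list starts at a −log10 q of 1.31, yet 5 member peaks with a −log10 q of 2.27 were in the longer list alone. Dropping the exclusion words gave 43 genes, adding 4 transport words gave 38, and keeping peaks with a q-value of 0.05 or lower gave 29. Over all settings run for it, the share of genes in both lists ranged between 22.9% and 31.0%. The lowest came without the vesicle protein and the reductase, an alternative chosen after seeing the data. No paired analysis was possible because each fraction had 1 library and no result came from a test. Pileups of 4 to 6 fragments limit every statement on single genes: if pileup is an unscaled count, the exact Poisson 95% interval of 5 is 1.62 to 11.7, and a gene without a peak was not shown to be unbound.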

Other observations

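Genes of the members were long. Their annotated length had a median of 3296 bp, against 1641 bp over all genes with a peak there, and 32 of the 37 exceeded that median. The range ran from 352 bp at the purine permease 11 gene GH_A10G1554, the member with the peak nearest to its start site, to 11473 bp at the GABA transporter 1-like gene GH_D09G1055. Whether gene length plays a part in which promoters have a peak was not tested.

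A peak of another gene with its summit within 20000 bp was found for 0 of the 38 member peaks (Wilson 0 to 9.18). The same held for 166 of all 2183 peaks in the list (7.60%). The list's share lies inside the members' interval, so a difference was not detectable with 38 peaks.

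The ontology term for transmembrane transporter activity was also given to 28 genes of the longer list that are not members. The median fold of their 29 peaks was 4.35, and that of the 23 peaks of members with the term was 3.73. On the lowest background these are the folds of neighbouring pileups, 6 and 5, and neither median has an interval here. The 28 include genes that the exclusion words remove, such as GH_D09G1743. Of the 28, 9 were in both lists (32.1%, Wilson 95% interval 17.9 to 50.7). So were 5 of the 23 members with the term (21.7%, Wilson 9.66 to 41.9). These intervals overlap, and both include the 34.3% of all genes in the list. The median fold of the whole list was 3.73. The highest of them, GH_D02G1069 at 7.92-fold and GH_A12G1239 at 6.84-fold, have no informative protein name. Named examples were a sugar transport protein 8-like gene (GH_D05G0900, 4.98-fold), a metal tolerance protein 11-like gene (GH_A05G3046, 3.73-fold) and pleiotropic drug resistance genes of the ABC type (GH_D04G0899, 4.35-fold, and GH_D07G0566, 3.73-fold).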
